A study of Mus musculus with 6 samples.

Results

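The genes of the circadian clock were followed in mouse lungs without (*Igf1-/-*) and with (*Igf1+/+*) insulin-like growth factor 1, taken from embryos at embryonic day 18.5. They were taken as 10 genes, namely *Clock*, *Arntl* (also called *Bmal1*), *Per1*, *Per2*, *Per3*, *Cry1*, *Cry2*, *Nr1d1*, *Dbp* and *Tef*, through every probe set of the array that is annotated with 1 of these symbols and no other. This gave 17 of 20380 such probe sets, and 10 of 12393 genes. *Igf1-/-* embryos were homozygous for a null *Igf1* allele backcrossed to the inbred C57BL/6J strain, and both genotypes came from matings of heterozygous parents. Each genotype had 3 arrays of 3-prime expression probes, and whether an array held RNA of 1 animal or of pooled lungs is not settled, since the sample descriptions mention pools and the methods separate RNA samples. The study's supplementary methods state that pups of this age were delivered by C-section and helped to breathe under a warming lamp before their lungs were taken. The sources used here do not give the hour of collection, which sets the level of many clock transcripts in adult tissues.

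The circadian clock is a feedback loop of transcription that runs in most mammalian cells with a period of about a day. CLOCK and BMAL1 bind E-box sequences and switch on the *Per* and *Cry* genes, whose proteins then repress CLOCK and BMAL1. A further arm runs through *Nr1d1* (REV-ERBα), which represses *Arntl* at ROR response elements, and through *Dbp* and *Tef*, whose proteins act at D-boxes. In adult mouse lung this loop cycles strongly, whereas rhythms of fetal tissues are known to be weaker.

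Short stretches of the members' promoters are shown because they hold letters that the factors of this loop are known to bind. They are RefSeq sequences of build GRCm38.p6 from windows of 300 bases (250 before and 50 after a start site), which were at hand for 9 of the 10 genes, in 14 windows. *Per2* had none. Capitals mark the motif, and each line reads 5′ to 3′ on the strand of the gene.
Per1: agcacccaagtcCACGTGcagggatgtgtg
Cry1: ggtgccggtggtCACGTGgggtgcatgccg
Tef: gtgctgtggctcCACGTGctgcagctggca
Tef (second start site): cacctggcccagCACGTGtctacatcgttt
Nr1d1: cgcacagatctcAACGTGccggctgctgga
Per3: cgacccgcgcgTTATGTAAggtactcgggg
Per3 (nearer site): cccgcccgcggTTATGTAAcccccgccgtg
Arntl: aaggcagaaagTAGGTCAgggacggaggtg

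The E-box CACGTG, searched on both strands, was found in 4 of the 14 windows, those of *Per1* (chr11:69098771-69098800, plus strand), *Cry1* (chr10:85185097-85185126, minus strand) and both windows of *Tef* (chr15:81802534-81802563 and chr15:81811264-81811293, plus strand), against 7.15% of all 32851 windows of this length. The variant CACGTT, which reads AACGTG on the other strand, was found in 3 windows, including that of *Nr1d1* (chr11:98775388-98775417, minus strand) and those of both *Cry* genes, against 4.68% of all. *Per3* carried the D-box TTATGTAA at 2 places (chr4:151044852-151044881 and chr4:151044805-151044834, minus strand), which 0.938% of all windows hold. The ROR response element TAGGTCA was found in *Arntl* alone among the members (chr7:113207530-113207559, plus strand), against 2.61% of all. The cAMP response element TGACGTCA was in 0 of the 14 windows and in 1.79% of all. These matches are a description of letters and say nothing about binding in these lungs.

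All levels are log2 values from RMA, a method that summarises the probes of a probe set. Array medians lay between 6.85 and 6.89 over 22626 mouse probe sets, and correlations between arrays between 0.992 and 0.996. *Igf1*, the inactivated gene, had a log2 difference of -0.51 between mutant and control lungs at the brightest of its probe sets (SE 0.17, adjusted p = 0.267), with overlapping groups. Its other probe sets had -0.58 (adjusted p = 0.152), with all mutants below all controls, and -0.42 (adjusted p = 0.327), with overlap. Where these probe sets lie relative to the inactivated part of the gene was not examined. Lung markers were present on every array, *Sftpc* with values from 14.37 to 14.47. Transcripts of other organs stood out on 2 arrays. The mean log2 value of 4 liver genes was 8.59 in *Igf1-/-* replicate 2 and 5.34 to 6.96 on the others, and that of 7 heart muscle genes was 9.92 in *Igf1-/-* replicate 3 and 8.26 to 8.50 on the others. The mean of 4 red cell genes was 6.23 to 6.37 in the mutants and 6.83 to 6.93 in the controls. Of these, *Slc4a1* (-1.64, adjusted p = 0.000146) and *Alas2* (-0.87, adjusted p = 0.0754) were lower in the mutants. The dim *Hba-a1* (0.12, adjusted p = 0.601) and *Epb42* (0.10, adjusted p = 0.60) were not. The part of red cell transcripts in the differences below was not tested. In whole lungs, fewer cells of a type and less RNA per cell cannot be told apart.

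No clock gene passed the test between genotypes. Differences were fitted with limma over all mouse probe sets with Benjamini-Hochberg adjustment, and the words rose and fell are kept for an adjusted p under 0.10. Of all mouse probe sets 126 passed, which is 0.557%, and of the 17 clock probe sets 0 passed. An unadjusted p under 0.05 was reached by 2 of the 17 clock probe sets, a share close to the 12.5% of all probe sets. The study used SAM. With a SAM statistic computed here, whose settings were not matched to those of the study, 0 clock probe sets and 252 of all probe sets passed. Of all probe sets 0.164% rose and 0.393% fell. The log2 differences ran from -0.35 to 0.39 with a median of 0.04, and the median of all probe sets was 0.026. All 17 intervals (95%, n = 3 per genotype) lay within 1 log2 unit of 0, the widest bounds being -0.88 and 0.62. The spread between arrays set what could be seen: at its own SE, a clock probe set would have passed from a difference of 0.40 for the most precise to 1.25 for the least precise.

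**Figure D1:**
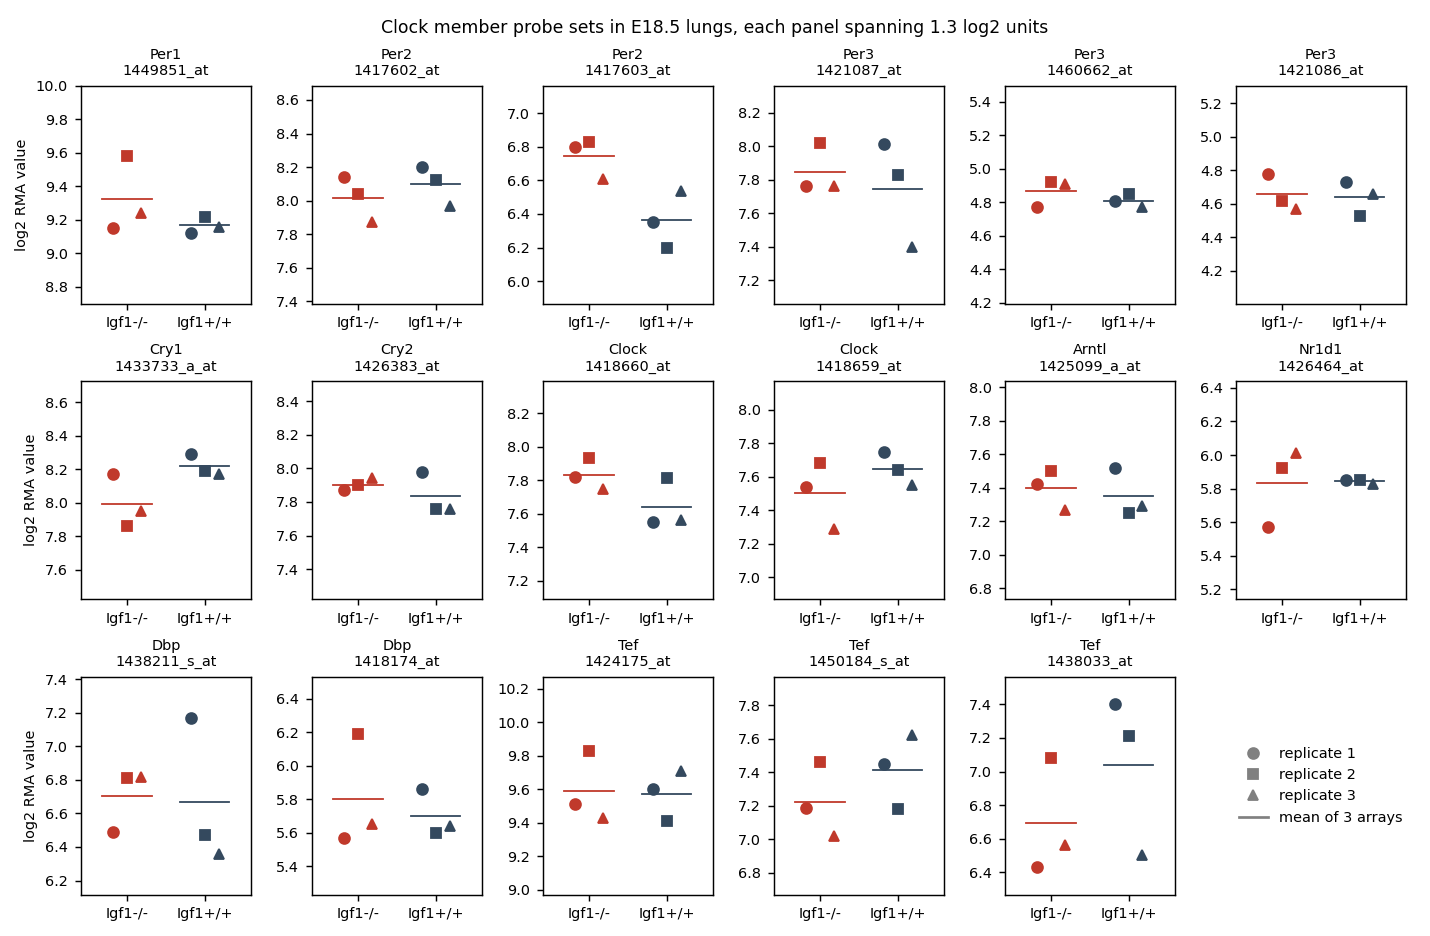
Log2 RMA values (y axis) of the 17 clock probe sets in 3 *Igf1-/-* and 3 *Igf1+/+* lungs, with marker shape for the replicate number and a line at the mean of 3 arrays. The genotypes overlap in every panel except that of the dimmer *Per2* probe set (1417603_at), and every panel spans the same number of log2 units.

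*Clock* and *Arntl* encode the activators of the loop. At its brighter probe set *Clock* had log2 values of 7.82, 7.93 and 7.75 in *Igf1-/-* lungs against 7.55, 7.81 and 7.56 in *Igf1+/+* lungs. The lowest mutant value lay below the highest control value, so the groups overlapped. The difference was 0.20 (SE 0.09, adjusted p = 0.437). The other *Clock* probe set had the opposite sign, with 7.29 to 7.68 against 7.55 to 7.75 and a difference of -0.15 (SE 0.11, adjusted p = 0.604).

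*Arntl*, the partner of *Clock*, had values of 7.42, 7.50 and 7.27 in *Igf1-/-* lungs against 7.52, 7.25 and 7.29 in *Igf1+/+* lungs. Replicate 2 was highest in the mutants and replicate 1 in the controls, with full overlap. Its difference was 0.04 (SE 0.10, adjusted p = 0.885), which the 95% interval placed between 0.881-fold and 1.20-fold.

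The *Per* genes encode repressors of the loop, and *Per1* is in addition an acute target of cAMP, serum and glucocorticoid signals. *Per1* had values of 9.15, 9.58 and 9.24 in *Igf1-/-* lungs against 9.12, 9.22 and 9.16 in *Igf1+/+* lungs. Only *Igf1-/-* replicate 2, the array with the most liver transcripts, stood clear of the others. The difference was 0.16 (SE 0.11, adjusted p = 0.587) and 0.03 without that array, and the part of liver RNA in it was not tested.

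*Per2* gave the smallest p of the members at its dimmer probe set, 1417603_at. Its values were 6.80, 6.83 and 6.61 in *Igf1-/-* lungs against 6.35, 6.20 and 6.54 in *Igf1+/+* lungs. All mutant values lay above all control values, which was so for 1 of the 17 clock probe sets and for 18% of all mouse probe sets in either direction (10.8% higher and 7.26% lower in the mutants). The difference was 0.39 (SE 0.11, adjusted p = 0.20, exact permutation p = 0.1, the smallest that 3 against 3 arrays allow). It passed without *Igf1+/+* replicate 3 (0.47, adjusted p = 0.0779), and its adjusted p was 0.324 to 0.484 with any other array left out. Without *Igf1+/+* replicate 3, 710 of all mouse probe sets passed, against 126 with all arrays. A filter on dim probe sets left 1417603_at out. The brighter *Per2* probe set, 1417602_at, did not share this difference: values of 8.14, 8.04 and 7.87 against 8.20, 8.12 and 7.97 overlapped, with -0.08 (SE 0.10, adjusted p = 0.755).

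*Per3* was read by 3 probe sets. The brightest had values of 7.76, 8.02 and 7.76 in *Igf1-/-* lungs against 8.01, 7.83 and 7.40 in *Igf1+/+* lungs, with a difference of 0.10 (SE 0.15, adjusted p = 0.816). The low value of *Igf1+/+* replicate 3 decided the sign, since the difference was -0.07 without it. The other *Per3* probe sets lay between 4.53 and 4.92 on every array, in the dim part of the scale, and differed by 0.06 and 0.01.

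The *Cry* genes encode the partners of the PER proteins in repression. *Cry1* had values of 8.17, 7.86 and 7.95 in *Igf1-/-* lungs against 8.29, 8.19 and 8.17 in *Igf1+/+* lungs, a difference of -0.22 (SE 0.09, unadjusted limma p = 0.0443, adjusted p = 0.385, exact permutation p = 0.2). Replicate 1 of the mutants reached the lowest control, so the groups overlapped. *Cry2* had values of 7.87, 7.90 and 7.94 against 7.98, 7.76 and 7.76, and a difference of 0.07 (SE 0.08, adjusted p = 0.745). In *Cry2* the highest of all values was that of *Igf1+/+* replicate 1.

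*Nr1d1*, the nuclear receptor that represses *Arntl*, had values of 5.57, 5.92 and 6.01 in *Igf1-/-* lungs against 5.85, 5.85 and 5.83 in *Igf1+/+* lungs. The controls were close to each other, and the mutants lay on both sides of them. The difference was -0.01 (SE 0.11, adjusted p = 0.972), and 0.12 without *Igf1-/-* replicate 1.

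*Dbp* and *Tef* encode transcription factors of the PAR bZIP family, through which the clock drives output genes. *Dbp* had values of 6.49, 6.81 and 6.82 in *Igf1-/-* lungs against 7.17, 6.47 and 6.36 in *Igf1+/+* lungs at its brighter probe set, 1438211_s_at. The highest and the lowest value were both those of control lungs. The difference was 0.04 (SE 0.20, adjusted p = 0.955), with a 95% interval of 0.752-fold to 1.40-fold, and its sign turned when any of 4 arrays was left out. At the dimmer one, 1418174_at, values of 5.57, 6.19 and 5.65 stood against 5.86, 5.60 and 5.64 (difference 0.11, SE 0.16, adjusted p = 0.815). Here *Igf1-/-* replicate 2 was the high array, and without it the difference was -0.09.

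*Tef* was read by 3 probe sets, of which the brightest and 1450184_s_at ordered the arrays of each genotype alike and 1438033_at did not. The brightest had values of 9.51, 9.83 and 9.43 in *Igf1-/-* lungs against 9.60, 9.41 and 9.71 in *Igf1+/+* lungs (difference 0.01, SE 0.12, adjusted p = 0.978). The dimmest, 1438033_at, had 6.43, 7.08 and 6.56 against 7.40, 7.21 and 6.50, the widest scatter of all members (difference -0.35, SE 0.24, adjusted p = 0.571). The remaining one, 1450184_s_at, had a difference of -0.20 (SE 0.14, adjusted p = 0.593). In *Igf1+/+* replicate 3 the dimmest probe set had its lowest control value while the others had their highest. The ending _s_at marks a probe set whose probes can match more than 1 transcript.

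**Figure D2:**
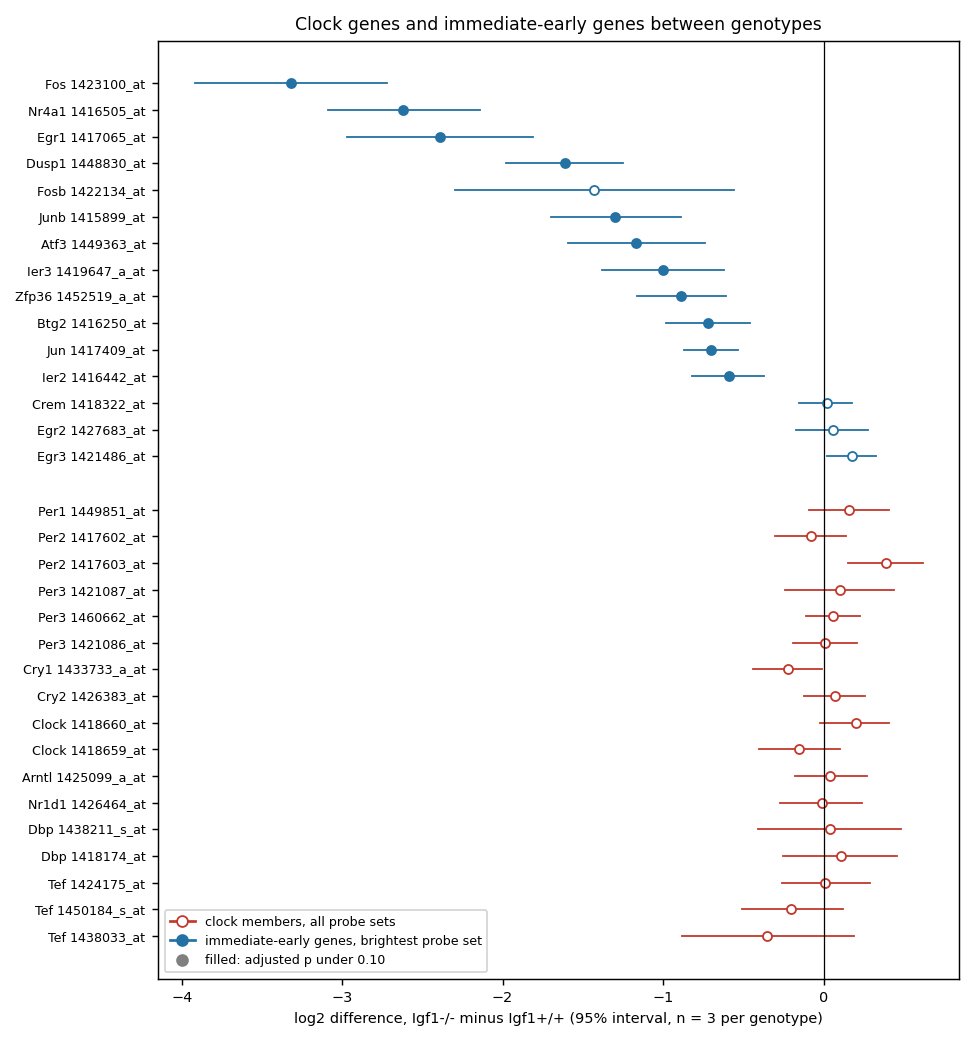
Log2 differences between *Igf1-/-* and *Igf1+/+* lungs (x axis, point, with 95% interval, n = 3 per genotype) for the 17 clock probe sets and for the brightest probe set of 15 immediate-early genes. Clock probe sets lie between -0.35 and 0.39 and none is filled, whereas 11 immediate-early genes are filled (adjusted p under 0.10) and lie between -3.32 and -0.59.

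*Per1* was set beside the immediate-early genes, since cAMP and serum induce it within the hour in mouse cells together with *Fos*. Of 15 immediate-early genes 11 fell in *Igf1-/-* lungs against 0 rose, with a median log2 difference of -1.0 over the list against 0.03 over all genes, where 0.815% of genes passed (0.242% rose and 0.573% fell). The count was 7 to 12 with 1 array left out, reaching 7 when replicate 1 of either genotype or *Igf1-/-* replicate 3 was dropped. *Fos* had values of 8.46, 8.08 and 8.09 in *Igf1-/-* lungs against 11.54, 12.15 and 10.90 in *Igf1+/+* lungs. It fell by 3.32 on the log2 scale (SE 0.27, adjusted p = 0.00179). The transcription factor genes *Nr4a1* (-2.62), *Egr1* (-2.39), *Junb* (-1.30), *Atf3* (-1.17) and *Jun* (-0.70) fell as well. So did *Dusp1* (-1.61), *Ier3* (-1.0), *Zfp36* (-0.89), whose protein destabilises mRNAs, *Btg2* (-0.72) and *Ier2* (-0.59). The study also reported low mRNA of *Fos*, *Jun*, *Egr1* and *Nr4a1* in these mutants. It names breathing by the wild-type pups as a possible reason, besides a dependence on IGF1 signals, and neither was tested here. The 95% interval of *Per1* ran from -0.09 to 0.41. Without *Igf1-/-* replicate 2, the array with the most liver transcripts, it ran from -0.16 to 0.22. With any 1 array left out its lower bound was between -0.17 and -0.02. The interval of *Ier2*, the called immediate-early gene with the smallest change, ran from -0.82 to -0.37. Not every gene of the list fell, since *Crem*, a target of cAMP signals, had 0.02 (adjusted p = 0.938) and *Egr3* 0.18 (adjusted p = 0.355). Among the control lungs, *Per1* was highest in replicate 2, where *Fos* was highest as well, but the 3 values of *Per1* lay between 9.12 and 9.22. Among the mutants, *Per1* was highest in replicate 2 (9.58) and *Fos* in replicate 1 (8.46).

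Glucocorticoid signals are the other acute input to *Per1*. Of 11 glucocorticoid response genes 1 fell and 0 rose, where 0.815% of all genes passed. The gene that fell was *Dusp1*, a phosphatase of MAP kinases that also stands among the immediate-early genes, with -1.61 (SE 0.16, adjusted p = 0.00763). The list had a median of -0.24, and 10 of its 11 genes were lower at their brightest probe set, against 39.4% of all genes. An unadjusted limma p under 0.05 was reached there by 5 of the 11, against 12.7% of all genes. *Sgk1*, a kinase that regulates sodium channels, had -0.60 (SE 0.19, adjusted p = 0.253), the receptor inhibitor *Errfi1* had -0.28 (adjusted p = 0.233), and the metallothioneins *Mt2* and *Mt1* had -0.42 (adjusted p = 0.274) and -0.33 (adjusted p = 0.334). Without *Igf1+/+* replicate 3 the count was 3, with *Klf9* and *Sgk1* beside *Dusp1*, and with the replicate number as a block it was 2, with *Sgk1* and *Dusp1*. Of all mouse probe sets 710 and 138 passed in these settings, against 126 in the main fit.

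The rest of the clock loop gave the same count as the members. Of 20 measured genes (transcription factors, kinases, ubiquitin ligases and cofactors) 0 rose and 0 fell in limma, 0 had an unadjusted p under 0.05 at the brightest probe set, where 12.7% of all genes had one, and the median difference was 0.05. The SAM statistic called 1, *Hlf*. This further PAR bZIP factor had values of 6.14, 6.08 and 6.19 in *Igf1-/-* lungs against 5.79, 5.83 and 5.85 in *Igf1+/+* lungs at the dimmer of its probe sets, with all mutants above all controls. The difference was 0.31 (SE 0.07, adjusted p = 0.137), and its brighter probe set had 0.19 (SE 0.18, adjusted p = 0.686) with overlapping groups. *Nfil3*, the repressor that competes with DBP and TEF for D-boxes, had 7.31, 7.18 and 7.21 against 7.59, 7.83 and 7.15. Its difference was -0.29 (SE 0.15, adjusted p = 0.466), and *Nfil3* and *Wdr5*, a cofactor of histone methylation, were called without *Igf1+/+* replicate 3. In that setting 710 of all mouse probe sets passed, against 126 with all arrays. *Nono*, a cofactor of PER proteins, differed by 0.30 at a dimmer probe set (SE 0.08, adjusted p = 0.224) and by 0.01 at its brightest.

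Of *Csnk2a1*, *Rora* and *Timeless*, which came next by p, none had an adjusted p under 0.44. *Csnk2a1*, a kinase subunit, had -0.25 and *Rora*, the activator that opposes *Nr1d1* at ROR response elements, -0.26. *Timeless* had 0.20. *Nr1d2*, the close relative of *Nr1d1*, had 6.83, 7.14 and 7.19 in the *Igf1-/-* lungs against 7.56, 6.98 and 7.17, and was named after its values were seen. It was highest in *Igf1+/+* replicate 1, the array where *Dbp* 1438211_s_at and *Arntl* were highest too.

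Clock output genes, which cycle in many adult mouse tissues, were also without a call. Of 11 measured, 0 rose and 0 fell in limma, where 0.815% of all genes passed, and SAM called 0. At the brightest probe set 2 of the 11 had an unadjusted p under 0.05, against 12.7% of all genes. *Wee1*, a kinase that holds back mitosis, had values of 6.17, 6.32 and 6.07 in *Igf1-/-* lungs against 5.67, 5.52 and 6.11 in *Igf1+/+* lungs at the dimmer of its probe sets. *Igf1+/+* replicate 3 lay among the mutants, and of the settings run *Wee1* was called only without that array or with arrays weighted by quality. Of all mouse probe sets 710 and 628 passed in those settings, against 126 in the main fit. The difference of *Wee1* was 0.42 (SE 0.15, adjusted p = 0.303), and 0.08 (adjusted p = 0.748) at its brighter probe set. *Pfkfb3*, a regulator of glycolysis, had -0.44 (SE 0.17, adjusted p = 0.347) and *Nampt*, an enzyme of NAD synthesis, -0.23 (SE 0.10, adjusted p = 0.378). *Marveld1* had 0.20 at a dimmer probe set (adjusted p = 0.412).

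Lungs of 1 genotype differed more in clock genes than in most genes. The SD within genotype had a median of 0.157 log2 units over the 17 clock probe sets and of 0.11 over all mouse probe sets, and 14 of the 17 were in the upper part of the ranking, above the median. Those above the 90th percentile were 5, all of *Dbp*, *Tef* and *Per3*: *Tef* 1438033_at at percentile 99.3 (SD 0.413), *Dbp* 1438211_s_at at 98.6 (SD 0.338), *Dbp* 1418174_at at 95.9 (SD 0.26), *Per3* 1421087_at at 94.8 (SD 0.244) and *Tef* 1450184_s_at at 92.6 (SD 0.223). Among probe sets within 0.5 log2 units of their own level they stood at 98.9, 97.5, 93.6, 93.3 and 89.1. *Cry2*, *Arntl* and the brighter *Clock* probe set were nearer the middle, at 36.5, 64.7 and 58.4 among all probe sets. Among those of their own level they stood at 33.5, 57.3 and 53.4. This is a description of 3 arrays per genotype, with no test, and probe sets of 1 gene are not independent.

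**Figure D3:**
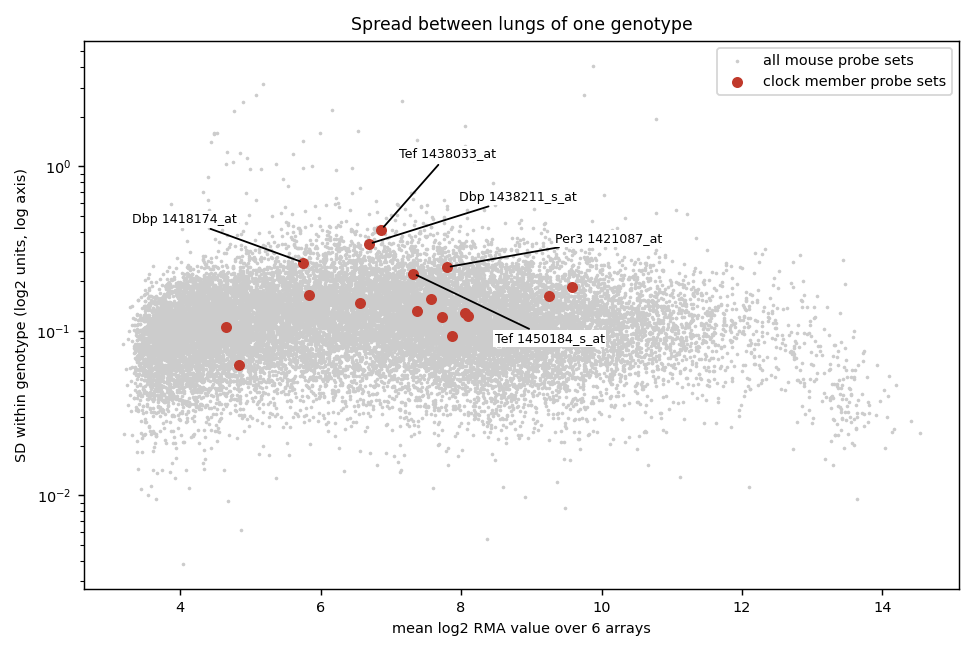
SD within genotype (y axis, log2 units on a log axis) against the mean log2 RMA value over 6 arrays (x axis) for all mouse probe sets (grey) and the 17 clock probe sets (red). The named points are the 5 clock probe sets above the 90th percentile, with SDs from 0.223 to 0.413.

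The high values gathered on 1 array of each genotype. Among the mutants, *Igf1-/-* replicate 2 was the highest for 11 of the 17 clock probe sets, against 37.4% of all probe sets. Among the controls, *Igf1+/+* replicate 1 was the highest for 10 of the 17, against 30.3% of all. On both arrays *Arntl*, *Dbp* 1418174_at, *Per3* 1421087_at, *Clock* 1418659_at and *Tef* 1438033_at had the highest value of the genotype. The rest was mixed, since *Cry1* was lowest of the mutants in *Igf1-/-* replicate 2 (7.86), and *Per1* (9.12) and the brighter *Clock* probe set (7.55) lowest of the controls in *Igf1+/+* replicate 1. *Igf1-/-* replicate 2 was also the array with the most liver transcripts (mean 8.59), and *Igf1+/+* replicate 1, with 6.83, was below replicate 3 of its genotype (6.96). *Alb*, the serum albumin gene, was 10.81 in *Igf1-/-* replicate 2 and 6.10 to 8.67 on the others. The part of liver RNA in the clock values was not tested.

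**Figure D4:**
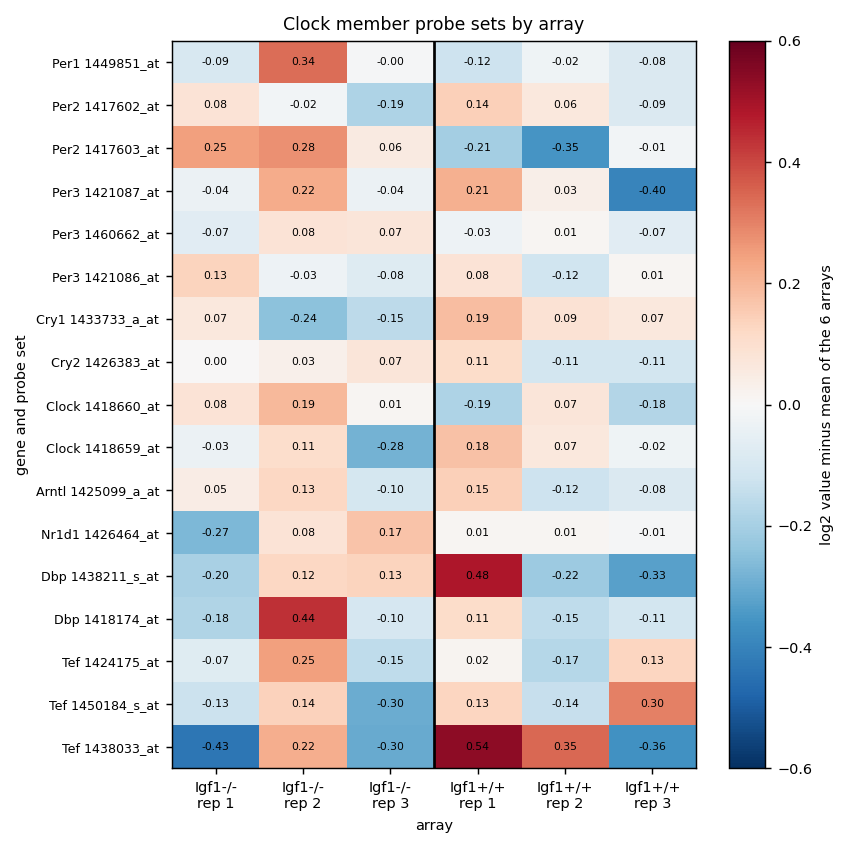
Log2 value of each clock probe set minus its mean over the 6 arrays (colour and number), with arrays in columns and genotypes separated by the line. *Igf1-/-* replicate 2 is the highest mutant for 11 of 17 probe sets and *Igf1+/+* replicate 1 the highest control for 10.

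The arms of the loop were then compared within each array, because in a cycling adult tissue genes driven by E-boxes and *Arntl* peak at opposite times of day. The mean of *Per1*, *Per2*, *Per3*, *Nr1d1*, *Dbp* and *Tef* minus that of *Arntl* and *Clock*, each centred over the 6 arrays, was -0.17, 0.01 and 0.04 in *Igf1-/-* lungs against 0.15, -0.02 and 0.00 in *Igf1+/+* lungs. All arrays were thus within 0.17 log2 units of the common mean, and the genotypes overlapped, with -0.04 ± 0.11 against 0.04 ± 0.09 (mean ± SD, n = 3). The E-box driven genes alone had 0.16 in *Igf1-/-* replicate 2 and 0.12 in *Igf1+/+* replicate 1, and *Arntl* and *Clock* had 0.16 and -0.02 there. With each gene's median probe set in place of the brightest, the value of *Igf1+/+* replicate 1 was -0.01.

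Over the 6 arrays, the genes most like *Dbp* in pattern were *Camk2b* (Pearson r = 0.992), *Zfp119a* (0.990) and *Tmem40* (0.982), each highest in *Igf1+/+* replicate 1. Those most like *Per1* were *Dnase1l2* (0.993), *Pck2* (0.990) and *Sytl4* (0.989), each highest in *Igf1-/-* replicate 2. They were picked as the highest of 12393 genes over 6 arrays and are a description only.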

How the data were processed

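RNA samples of *Igf1-/-* lungs (3) and *Igf1+/+* lungs (3) were each hybridized to 1 Affymetrix array. The deposited log2 values were made by the authors with RMA over these 6 lung arrays and further cochlear arrays (version not stated), and no detection calls were used. Control probe sets (64 of 22690) were left out. Symbols came from the platform annotation, in which 20380 of the mouse probe sets have 1 symbol, 691 several and 1555 none. With R 4.3.3 and limma 3.58.1, a genotype model without further terms was run on all 22626 mouse probe sets, with p-values adjusted over all of them, after a test on simulated data. Promoter sequences were RefSeq's, build GRCm38.p6. Members and lists were chosen with earlier results of these data known. Named genes were all members at every probe set, genes of the other lists past an adjusted p of 0.10 or else the 4 with the lowest p, and the 3 genes most like *Dbp* and *Per1*. Outside this rule, *Crem*, *Egr3*, *Sgk1*, *Errfi1*, *Mt1*, *Mt2*, *Klf9*, *Timeless*, *Nfil3*, *Nr1d2* and *Wdr5* were named after their values were seen, besides *Igf1* and marker genes. Lists of red cell, skeletal muscle, thymus, brown fat and cochlear markers were read beside those of lung, liver and heart. Mean log2 values over the 6 arrays were 10.94 to 11.19 for lung epithelium, 11.07 to 11.26 for mesenchyme, 9.70 to 9.99 for endothelium, 4.92 to 5.27 for skeletal muscle, 4.95 to 5.15 for thymus, 4.73 to 5.06 for brown fat and 4.10 to 4.24 for cochlea. Alternatives were a replicate block, other normalizations, a filter on dim probe sets, other variance models, array weights, SAM, other thresholds and leaving out each array. The number of arrays limits the precision. P-values set the difference between genotypes against the spread between these samples, part of which may be technical. The study calls the samples independent biological replicates.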

Additional observations from a re-analysis of the deposited data

How the results depend on the processing

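Over 282 results for the clock probe sets under other settings, 259 kept their direction and stayed short of the threshold. Of the rest, 21 changed sign and 2 passed the threshold, both of *Per2* 1417603_at (without *Igf1+/+* replicate 3 and, with 0.45 and an adjusted p of 0.0781, with array quality weights). The 282 include settings in which the direction could not change. Other adjusted p limits reused the main fit. The replicate block, the variance trend, SAM, keeping control probe sets and the filter on dim probe sets left the log2 differences unchanged. For these settings, only the side of the threshold was tested. The changes of sign concerned small differences. Under quantile normalization the dim *Per3* probe sets had 0.00 and -0.04. With 1 array left out, the range was -0.01 to 0.12 for *Arntl*, -0.10 to 0.12 for *Nr1d1*, -0.12 to 0.29 and -0.09 to 0.22 for *Dbp*, -0.11 to 0.09 for the brightest *Tef* probe set, and -0.07 to 0.23 and -0.05 to 0.06 for *Per3* 1421087_at and 1421086_at. Leaving out both *Igf1-/-* arrays with the most liver or heart transcripts was chosen after seeing the data and left 1 mutant array, assumed to vary like the controls. It gave -0.01 for *Per1*, 0.04 for *Per2* 1417602_at, -0.04 for *Per3* 1460662_at, -0.18 and -0.13 for *Dbp* and -0.07 for *Tef*, and called 4 probe sets in all, 0 immediate-early genes and 0 glucocorticoid response genes. The immediate-early differences were of like size in that fit, with a median of -0.95 against -1.0 and with -3.07 for *Fos*, -2.54 for *Nr4a1* and -1.65 for *Dusp1*.

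The count of clock probe sets called was 1 with array quality weights and 0 to 1 with 1 array left out. The count of all mouse probe sets, 126, became 204 with a variance trend, 628 with quality weights, 252 with SAM, 588 and 54 at adjusted p limits of 0.20 and 0.05, and 45 to 710 with 1 array left out, the highest without *Igf1+/+* replicate 3. The other loop genes had 1 call with quality weights, with SAM and at 0.20, each time *Hlf*, and 0 to 2 with 1 array left out. Output genes had 1 call with quality weights and 0 to 1 with 1 array left out. Immediate-early genes had 7 to 12 and glucocorticoid response genes 1 to 3 with 1 array left out. Correlations of same-numbered deviations were -0.0393, -0.228 and -0.137, which gave no sign that replicate numbers pair the arrays. They cannot exclude a pairing, since deviations from a mean of 3 arrays are not independent. In addition, 2 mutant arrays had the highest levels of liver or heart transcripts. With the replicate block 138 probe sets, 0 of them clock probe sets, and 2 glucocorticoid response genes were called.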
